A study of Mus musculus with 3 samples.

Results

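The genes described here carry glucose into the cell and break it down to lactate. They are the glucose transporter gene Slc2a1, the hexokinase genes Hk1 and Hk2, the glucose phosphate isomerase gene Gpi1, the phosphofructokinase genes Pfkl and Pfkp, and Aldoa, Tpi1, Pgk1 and Ldha. The 10 genes were chosen by symbol, and for each the brightest probe set with a single gene symbol was read. Of the 10, 9 had such a probe set, out of 19937 genes read in this way. Gpi1 had none in the annotation used and was not analysed here. All 9 reached the median of all values, a log2 intensity of 6.81, in at least 1 library and were thus among the 12556 genes called measured. They also stood above background in all 3 libraries, where background is the 95th percentile of the olfactory receptor genes.

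Mature medullary thymic epithelial cells, which display antigens of other tissues to maturing T cells, were sorted as EpCAM+, CD45-, Ly51low and MHC-II high from mice of 3 genotypes aged 6 weeks. AireKO came from Aire-/- mice and Sirt1cKO from mice with Sirt1fl/fl and Foxn1-Cre, a driver active in thymic epithelium. WT came from Sirt1fl/fl mice, so the floxed Sirt1 allele is shared by Sirt1cKO and WT, and the labels do not give it for the Aire-/- mice. The strain is given as C57b/6 for all 3. Typically 3 mice were pooled for a sort, and the RNA was amplified before it went onto Affymetrix Mouse Gene 1-ST arrays. With 1 library for each genotype, no spread between replicates is known and no p-value can be given. Each difference therefore compares a pair of libraries, and precision is limited by how few arrays there are.

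Glycolysis splits glucose into pyruvate in the cytosol and yields ATP without oxygen. Slc2a1 encodes the transporter GLUT1, hexokinases trap glucose as glucose 6-phosphate, and phosphofructokinases commit it to the pathway. Lactate dehydrogenase A turns pyruvate into lactate and returns the NAD+ that the pathway needs. Many of these genes are known targets of the hypoxia-inducible factor HIF-1 and of Myc.

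The targeted genes did not tell the knockouts apart. Aire stood at a log2 intensity of 11.55 in the library labelled AireKO, 11.24 in the library labelled Sirt1cKO and 11.97 in WT, and Sirt1 at 11.42, 11.27 and 11.40 in the same order. Whole-transcript probe sets can lie outside a deleted exon, and so neither label is checked by these values. The free-text description fields of the knockout libraries name each other's genotype, and AireKO and Sirt1cKO here stand for the library so titled. Of 12 markers of mature medullary epithelium 11 were on the array, and all 11 stood above background in each library. Sex-linked genes differed between the libraries too. Xist, the long RNA that silences an X chromosome, had 6.75 in AireKO, 11.46 in Sirt1cKO and 12.17 in WT, and the Y-linked Eif2s3y at 9.75, 8.92 and 4.23. The labels give no sex, and genotype cannot be told apart from this difference.

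All 9 genes were lower in AireKO than in WT, and all 9 were lower in Sirt1cKO than in WT, before any rescaling. The exception after rescaling was Pfkp in AireKO, whose difference became 0.01 once the median of genes of like brightness was subtracted. Ldha had the largest difference of the 9 in both comparisons. In AireKO it alone of the 9 was at least 2-fold lower, and rescaling brought it below that rule. The members' median difference was -0.60 in AireKO minus WT and -0.46 in Sirt1cKO minus WT. Over all measured genes these medians were -0.19 and -0.07. Both comparisons use the same WT library, so they are not independent of each other. In sorted bulk cells, fewer cells of a kind and less RNA per cell cannot be told apart.

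**Figure D1:**
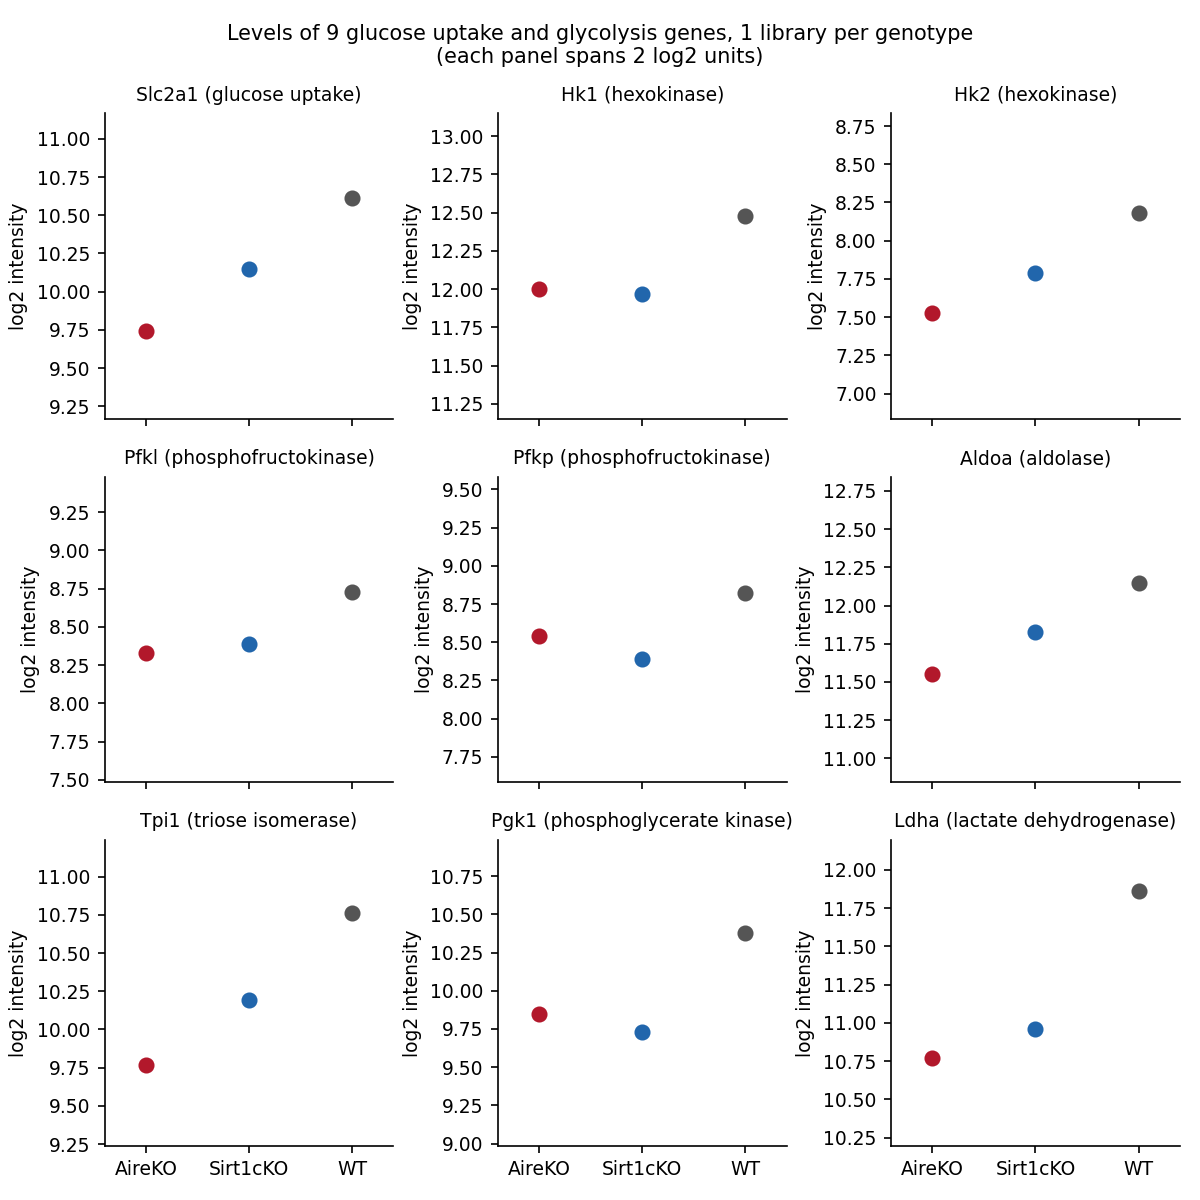
Log2 intensity of the 9 genes in AireKO, Sirt1cKO and WT, with 1 point for each library and no error bars because each genotype had 1 library. WT holds the highest point in every panel, and the vertical axes span equal ranges but start at different levels.

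Glucose uptake itself was not measured here, and only the RNA of Slc2a1, which encodes the main glucose transporter of many proliferating cells, was read. Its log2 intensity was 9.74 in AireKO, 10.15 in Sirt1cKO and 10.61 in WT. The order of the libraries was thus AireKO, Sirt1cKO, WT from low to high. The differences from WT were -0.87 in AireKO, a 1.83-fold lower intensity, and -0.46 in Sirt1cKO, 1.38-fold lower.

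Hexokinase 2 is the inducible hexokinase of muscle, fat and many tumours. Hk2 had a log2 intensity of 7.53 in AireKO, 7.79 in Sirt1cKO and 8.18 in WT. It was the member nearest to background, which lay at 6.89, 6.34 and 6.02 in the same order. The differences from WT were -0.65 in AireKO and -0.39 in Sirt1cKO.

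Hexokinase 1 is the broadly expressed form, and its probe sets need care. The brightest single-symbol probe set of Hk1 stood at 12.00 in AireKO, 11.97 in Sirt1cKO and 12.48 in WT, differences of -0.48 and -0.51 from WT. Its annotation rests on 1 sequence record and lists no RefSeq transcript of Hk1. A further 15 probe sets list that same record and name Hk1 together with Rpl17, a gene of the large ribosomal subunit. The other single-symbol probe set of Hk1 lists that record too, so the record alone does not set the 2 apart. It also lists RefSeq transcripts of Hk1, and it stood at 8.14, 8.40 and 8.64. By that probe set the differences from WT were -0.50 in AireKO and -0.24 in Sirt1cKO. The 2 probe sets thus gave nearly the same difference in AireKO, while in Sirt1cKO they disagreed in size. Which RNA the brighter one measures was not tested, so its level is not read as that of hexokinase 1. With the RefSeq probe set in its place, the members' median was -0.60 in AireKO and -0.43 in Sirt1cKO.

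**Figure D2:**
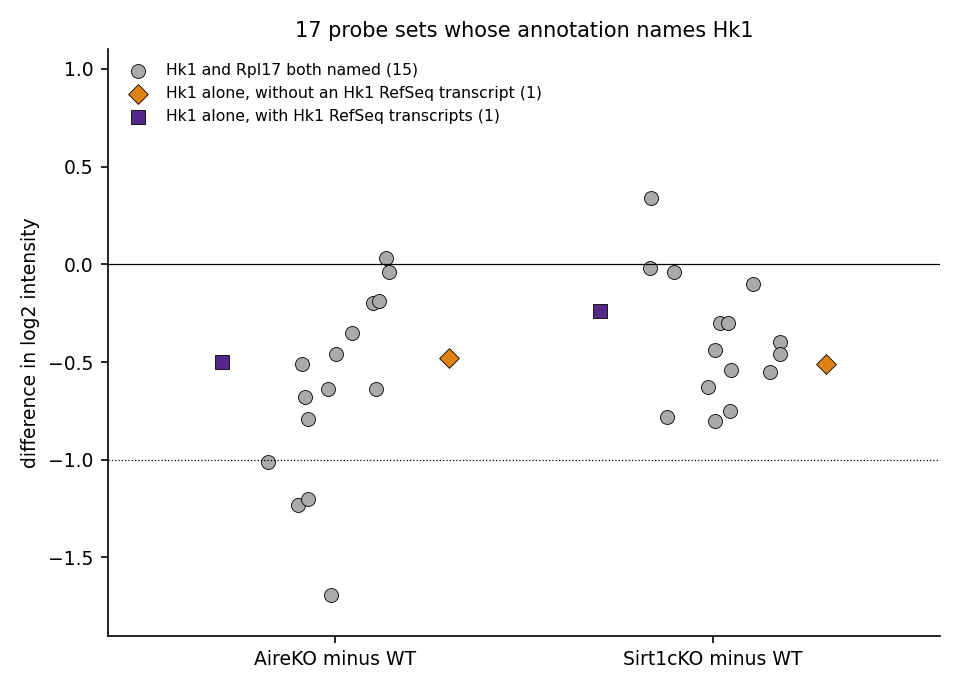
Difference in log2 intensity from WT of the 17 probe sets whose annotation names Hk1, in AireKO and in Sirt1cKO, with sideways scatter inside each column only to separate points. Circles name Rpl17 too, the diamond is the brightest single-symbol probe set, the square is the one with Hk1 RefSeq transcripts, and the dotted line marks 2-fold lower. The diamond lies at -0.48 and -0.51, and the square at -0.50 and -0.24.

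Of the 15 probe sets that name both genes, 14 were below WT in AireKO and 14 in Sirt1cKO. Their median differences were -0.64 and -0.44. Only 12 of them stood above background in all 3 libraries. Over those 12 the range was -1.23 to -0.04 in AireKO and -0.80 to -0.10 in Sirt1cKO. The brightest Hk1 probe set lay inside both ranges, and so did the one with RefSeq transcripts. The ranges are wide and hold both, so they do not tell which RNA either probe set measures.

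Phosphofructokinase makes fructose 1,6-bisphosphate, and Pfkl and Pfkp encode its liver and platelet subunits. Pfkl had a log2 intensity of 8.33 in AireKO, 8.39 in Sirt1cKO and 8.73 in WT, and Pfkp 8.54, 8.39 and 8.82. Their differences from WT were -0.41 and -0.29 in AireKO, and -0.34 and -0.43 in Sirt1cKO. In AireKO these were the smallest differences among the 9 genes. Measured genes of the same decile of brightness had a median of -0.30 in AireKO and -0.08 in Sirt1cKO. The muscle subunit gene Pfkm, which is not a member, differed by -0.03 in AireKO and -0.21 in Sirt1cKO.

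Aldolase A splits fructose 1,6-bisphosphate, and triosephosphate isomerase interconverts the triose phosphates that result. Aldoa stood at 11.55 in AireKO, 11.83 in Sirt1cKO and 12.15 in WT, differences of -0.60 and -0.32. Tpi1 stood at 9.77, 10.19 and 10.76, differences of -0.99 in AireKO and -0.57 in Sirt1cKO. In AireKO Tpi1 was 1.99-fold lower and so lay just short of the 2-fold rule. For both genes Sirt1cKO lay between AireKO and WT.

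Phosphoglycerate kinase 1 makes the first ATP of the pathway's second stage, and its gene lies on the X chromosome. Pgk1 had a log2 intensity of 9.85 in AireKO, 9.73 in Sirt1cKO and 10.38 in WT. Sirt1cKO was the lowest of the 3, with a difference of -0.65 from WT, 1.57-fold lower, against -0.53 in AireKO. The libraries differ in Xist, as given above, and the part of that difference in the Pgk1 values was not tested. Without X-linked and Y-linked genes the median of the 8 remaining members was -0.63 in AireKO and -0.45 in Sirt1cKO.

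Ldha, the gene of the lactate-forming dehydrogenase, stood at 10.77 in AireKO, 10.96 in Sirt1cKO and 11.86 in WT. On the linear scale the intensities were 1747, 1985 and 3725. The knockout libraries lay close to each other and WT well above both. Ldha was 2.13-fold lower in AireKO, a difference of -1.09, and 1.88-fold lower in Sirt1cKO, a difference of -0.91. In AireKO, 5 rescalings moved the difference to between -0.96 and -0.82, below the 2-fold rule.

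Promoter sequences of Ldha, Pgk1 and Slc2a1 are shown because Ldha and Pgk1 had the largest differences of the 9 genes in Sirt1cKO, Slc2a1 is the transporter of the set, and all have the short core of the hypoxia response element in this window. Each is the 250 bases before a RefSeq start site in GRCm38.p6, 5′ to 3′ on the gene's strand, with ACGTG and its reverse complement CACGT in capitals. Where they overlap as CACGTG, the E-box that Myc binds, all 6 letters are capitals. Ldha lies at chr7:46845554-46845803, plus strand. Pgk1 lies at chrX:106186850-106187099, plus strand. Slc2a1 lies at chr4:119108495-119108744, plus strand.
Ldha: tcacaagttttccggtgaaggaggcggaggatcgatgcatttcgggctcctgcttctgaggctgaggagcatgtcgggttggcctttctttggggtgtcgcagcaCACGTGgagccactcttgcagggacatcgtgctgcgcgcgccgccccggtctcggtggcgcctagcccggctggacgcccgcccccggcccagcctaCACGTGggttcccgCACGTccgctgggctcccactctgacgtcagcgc
Pgk1: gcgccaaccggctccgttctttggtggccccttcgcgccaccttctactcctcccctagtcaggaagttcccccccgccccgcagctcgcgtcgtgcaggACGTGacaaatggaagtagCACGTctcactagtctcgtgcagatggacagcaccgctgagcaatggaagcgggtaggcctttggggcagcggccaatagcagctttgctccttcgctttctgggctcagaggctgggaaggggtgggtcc
Slc2a1: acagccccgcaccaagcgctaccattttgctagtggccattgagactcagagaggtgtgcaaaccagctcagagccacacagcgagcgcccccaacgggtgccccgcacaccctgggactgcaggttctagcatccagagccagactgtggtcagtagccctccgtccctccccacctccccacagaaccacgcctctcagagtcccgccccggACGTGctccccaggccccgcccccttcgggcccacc

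A second Ldha entry, from a later start site, has no match. The Ldha window shown holds 5 matches on either strand, 4 of which make up 2 copies of CACGTG. Pgk1 has 2 matches, which begin 150 and 131 bases before the start site, and Slc2a1 has 1, which begins 36 bases before it. All 10 genes had at least 1 promoter entry, and 5 of the 10 had ACGTG or CACGT in at least 1 of them: Slc2a1, Hk2, Aldoa, Pgk1 and Ldha. Among all 27025 genes with an entry, 18.5% had it in at least 1 window. CACGTG was found in 1 of the 10 genes, Ldha, against 6.86% of all genes. The windows shown have GC contents of 67.2% for Ldha, 62.8% for Pgk1 and 66.4% for Slc2a1, and base composition alone changes how often such letters occur. Tpi1, with the second largest difference in AireKO, has no match in this window. A match is a description of letters and was not related to the expression values.

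In AireKO minus WT, 1 of 9 measured members was at least 2-fold lower and 0 were higher. Of all measured genes 8.46% were lower by that much and 2.68% higher. With 9 members a single call is near that share, so the 2-fold count says nothing particular of these genes. At 1.5-fold, 5 of the 9 were lower, namely Slc2a1, Hk2, Aldoa, Tpi1 and Ldha, against 23.6% of all measured genes. At 3-fold it was 0 of 9, against 1.86%. These counts are before rescaling. Over 5 rescalings Hk2 ran from -0.55 to -0.38 and Aldoa from -0.52 to -0.33, short of 1.5-fold, while Slc2a1, Tpi1 and Ldha stayed past it. The share of all measured genes was not counted again after rescaling. Before rescaling the differences ran from -1.09 to -0.29. Over all measured genes the middle part of the distribution, from quartile to quartile, ran from -0.56 to 0.17. Of all measured genes 63.7% were below WT.

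In Sirt1cKO minus WT, 0 of 9 members were at least 2-fold lower or higher, against 1.68% and 0.804% of all measured genes. At 1.5-fold, 2 of the 9 were lower, Pgk1 and Ldha, against 8.27% of all measured genes. Over 5 rescalings Pgk1 ran from -0.62 to -0.55, on either side of the 1.5-fold rule, while Ldha stayed past it. Before rescaling the differences ran from -0.91 to -0.32, while the quartiles of all measured genes were -0.30 and 0.15. The 9 values lay below the lower quartile, but the Hk1 probe set with RefSeq transcripts, at -0.24, did not. Of all measured genes 58.4% were below WT.

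**Figure D3:**
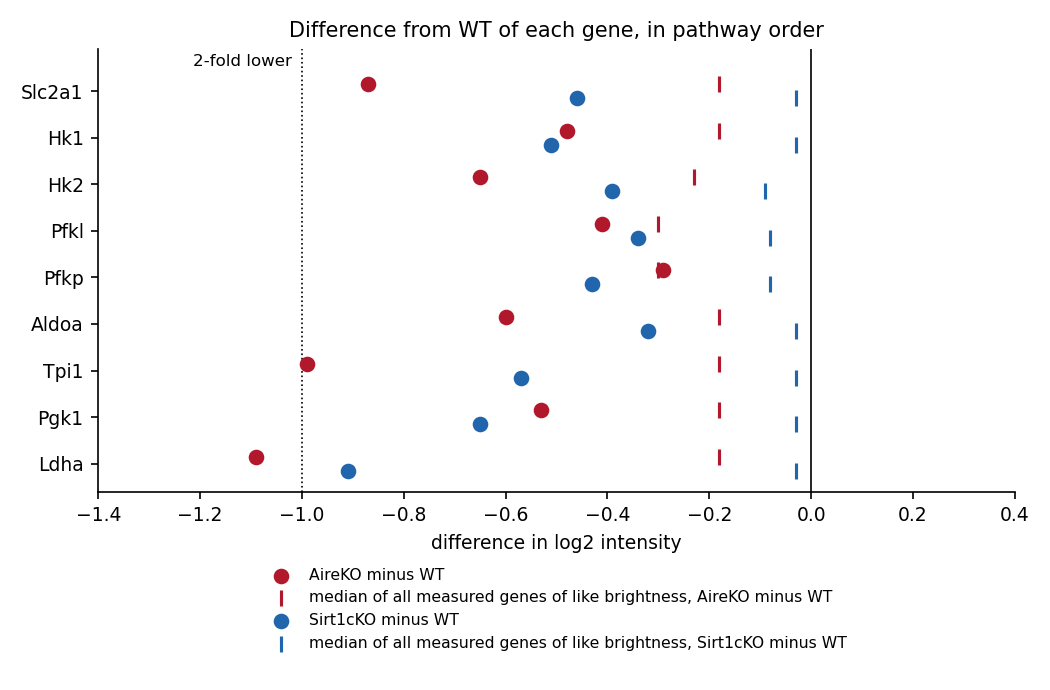
Difference in log2 intensity from WT of each gene, with AireKO in red above Sirt1cKO in blue, genes in pathway order from the top, and the dotted line at 2-fold lower. Short bars give the median of all measured genes of the same decile of brightness, and Pfkp in AireKO is the 1 point that does not lie to the left of its bar.

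The median difference varied with brightness, so each member was also set against genes of its own brightness. Of the 9 members 6 were in the brightest decile, whose median was -0.18 in AireKO and -0.03 in Sirt1cKO. In that decile 11.0% of genes were at least 2-fold lower in AireKO and 1.35% in Sirt1cKO. Relative to their deciles the members had a median of -0.42 in AireKO and -0.43 in Sirt1cKO. By this measure 8 of 9 lay below their decile's median in AireKO, with Pfkp the exception, and 9 of 9 in Sirt1cKO. Ldha lay 0.92 below it in AireKO and 0.88 below it in Sirt1cKO on the log2 scale. Hk1 enters these counts and medians by its brighter probe set, whose level is not read as that of hexokinase 1.

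**Figure D4:**
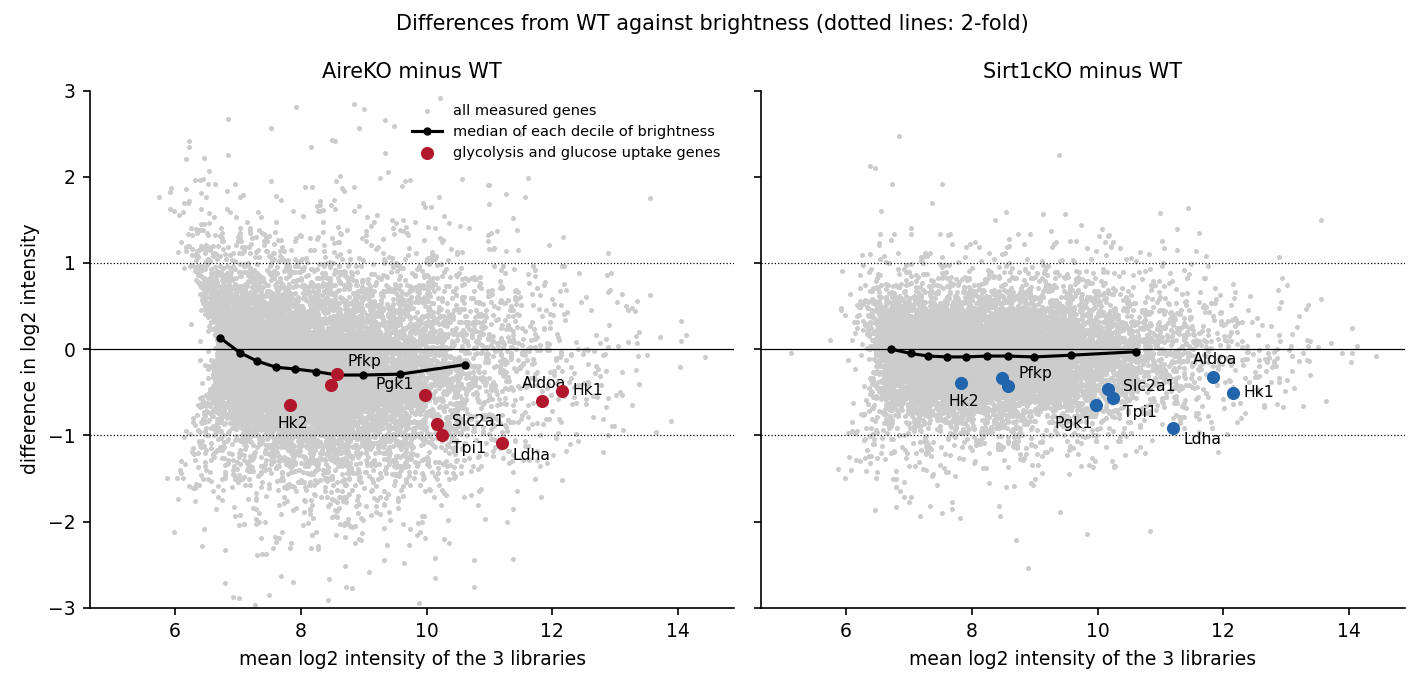
Difference in log2 intensity from WT against mean log2 intensity, with measured genes in grey, the 9 members in colour and the median of each decile of brightness in black. Dotted lines mark 2-fold, and 33 genes in AireKO and 4 in Sirt1cKO lie outside the plotted range. The members sit on or below the black line in AireKO and below it in Sirt1cKO.

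Between the knockouts, the members went both ways, as measured genes did. In Sirt1cKO minus AireKO 6 of the 9 were higher and 3 lower. Of all measured genes 38.3% were lower, so the split of the members is near that share. None of the 9 passed 2-fold, against 2.72% of measured genes on the higher side and 1.04% on the lower. Their median was 0.18, and that of all measured genes 0.11. Tpi1, at 10.19 in Sirt1cKO and 9.77 in AireKO, differed by 0.42, Slc2a1 by 0.41, Aldoa by 0.28, Hk2 by 0.26 and Ldha by 0.18. On the lower side were Pfkp at -0.14, Pgk1 at -0.12 and the brighter Hk1 probe set at -0.03. The Hk1 probe set with RefSeq transcripts differed by 0.26, which makes it 7 higher and 2 lower, with a median of 0.26. Pfkl, at 0.07, was below 0 after each of 5 rescalings.

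The rest of the pathway was read from lists that are not members. Of 17 other glycolytic enzyme genes, 13 had a single-symbol probe set and 8 were measured. The 8 had a median of -0.60 in AireKO and -0.48 in Sirt1cKO, and 2 of 8 were at least 2-fold lower in AireKO, 0 in Sirt1cKO, against 8.46% and 1.68% of all measured genes. Over 5 rescalings these medians were at most -0.33 in AireKO and -0.38 in Sirt1cKO. Ldhb, which encodes the lactate dehydrogenase subunit of heart muscle, stood at 9.15 in AireKO, 9.96 in Sirt1cKO and 10.47 in WT. That is a difference of -1.32 in AireKO and -0.51 in Sirt1cKO. Eno3, the muscle enolase gene, stood at 9.02, 9.51 and 10.14, differences of -1.12 and -0.63. Pklr, the liver and red cell pyruvate kinase gene, differed by -0.82 in Sirt1cKO, and Pgam1, a phosphoglycerate mutase gene, by 0.04. Pfkm, at -0.03, was the highest of the list in AireKO.

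Transporters of glucose and lactate made up a further list. Of 14 other transporter genes 9 were measured, with medians of -0.57 in AireKO and -0.62 in Sirt1cKO. After each of 5 rescalings the medians were at most -0.30 and -0.52. The 2-fold rule was passed on the lower side by 3 of the 9 in AireKO and 0 in Sirt1cKO, beside the same 8.46% and 1.68% of all measured genes. Slc2a6, which encodes the lysosomal transporter GLUT6, stood at 8.69 in AireKO, 9.03 in Sirt1cKO and 10.02 in WT. Its difference was -1.33 in AireKO and -0.99 in Sirt1cKO. Slc16a1, the gene of the lactate carrier MCT1, had linear intensities of 128.2, 204.5 and 314.6, log2 differences of -1.30 and -0.62. Slc5a1, the sodium-glucose cotransporter gene, was within background in AireKO at 6.60 and so at least 2.11-fold lower than in WT, at 7.97. Slc16a7, the gene of the carrier MCT2, was above WT in both, at 8.17 in AireKO, 7.96 in Sirt1cKO and 7.20 in WT.

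Regulators of glycolysis had medians nearer 0. Over 15 measured genes their median was -0.12 in AireKO and -0.05 in Sirt1cKO, values that were 0 or above under all 5 rescalings in each comparison. Of the 15, 0 passed 2-fold in either comparison. Before rescaling 13 of the 15 were below WT in AireKO and 8 in Sirt1cKO, against 63.7% and 58.4% of all measured genes. Myc differed by -0.43 in AireKO and -0.09 in Sirt1cKO. Hif1a, which encodes the oxygen-regulated subunit of HIF-1, had a log2 intensity of 10.63 in AireKO, 10.66 in Sirt1cKO and 10.52 in WT. Txnip, whose product restrains glucose uptake, was the lowest of the list, at -0.76 in AireKO and -0.63 in Sirt1cKO. Tigar, at 0.22, was the highest in AireKO, and Mlxip, at 0.23, in Sirt1cKO.

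HIF target genes outside glycolysis, 13 of 14 measured, had medians of -0.03 in AireKO and -0.05 in Sirt1cKO. These too were 0 or above under all 5 rescalings. In AireKO 6 of the 13 were above WT and 1 was at least 2-fold lower, against 8.46% of all measured genes. That gene was Ddit4, an inhibitor of mTORC1 signalling, at 8.50 in AireKO, 8.98 in Sirt1cKO and 9.53 in WT. Bnip3, a mitophagy gene, had the highest value of the list in AireKO, at 0.88, and differed by 0.03 in Sirt1cKO.

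**Figure D5:**
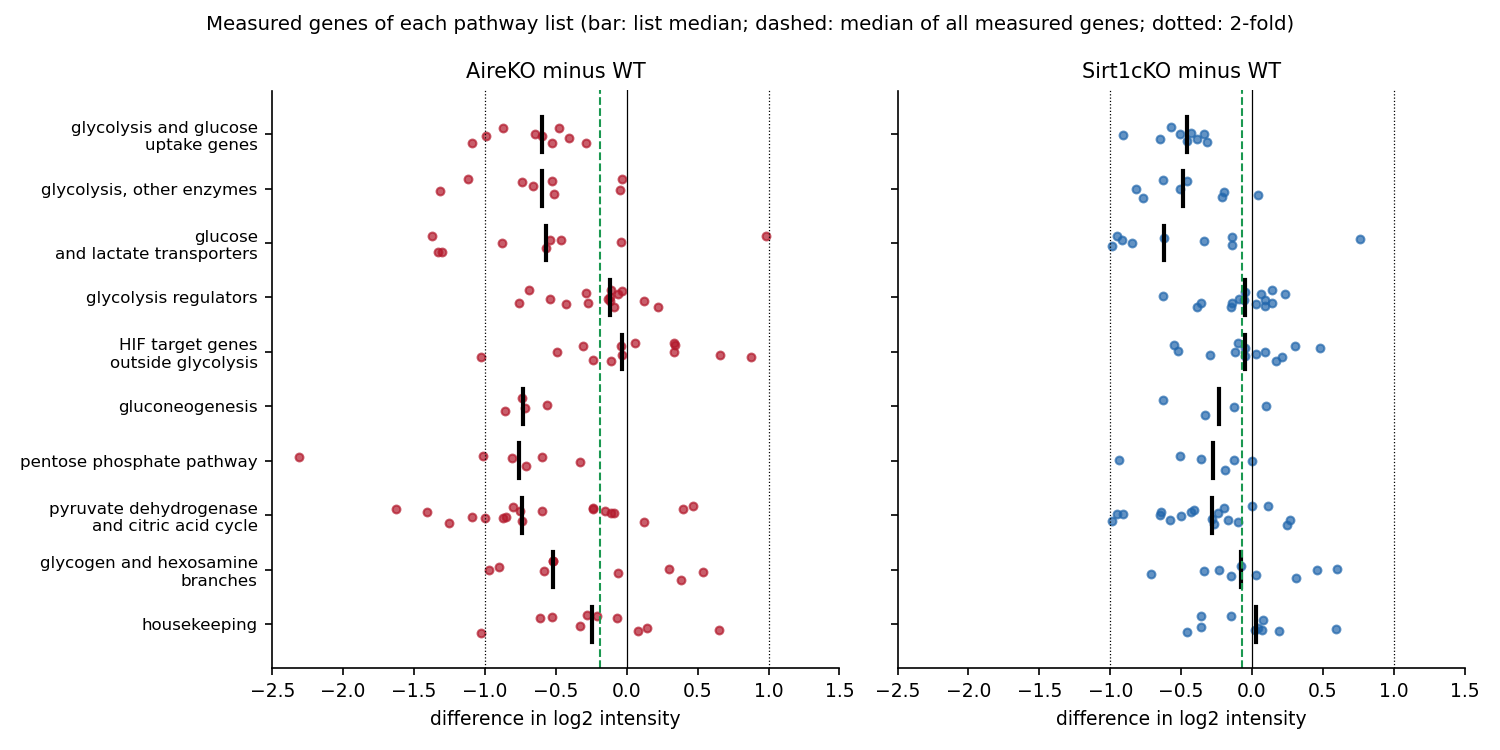
Difference in log2 intensity from WT of the measured genes of each list, AireKO on the left and Sirt1cKO on the right, with black bars at list medians, a dashed line at the median of all measured genes and dotted lines at 2-fold. Values are before rescaling. Medians of the members and of the other glycolytic enzymes lie at -0.60 in AireKO, and at -0.46 and -0.48 in Sirt1cKO. Those of regulators and HIF targets lie near 0. Rescaling, not drawn, brought members and other enzymes to at most -0.33 in AireKO, and to at most -0.36 and -0.38 in Sirt1cKO. It brought regulators and HIF targets to 0 or above.

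Pathways that branch from glycolysis or follow it had list medians below 0 in both comparisons. The pentose phosphate pathway, with 6 of 6 matched genes measured, had a median of -0.76 in AireKO and -0.28 in Sirt1cKO, and 2 of 6 were at least 2-fold lower in AireKO, against 8.46% of all measured genes. On 5 rescalings its medians were at most -0.49 and -0.18. Pgd, which encodes 6-phosphogluconate dehydrogenase, stood at 6.93 in AireKO, 8.30 in Sirt1cKO and 9.24 in WT. It had a difference of -2.31 in AireKO, where it lay just above background, and -0.94 in Sirt1cKO. Pgls, the lactonase gene of the same pathway, differed by -1.01 and -0.19.

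Pyruvate dehydrogenase and the citric acid cycle, with 19 measured genes, had a median of -0.74 in AireKO and -0.28 in Sirt1cKO. On 5 rescalings these were at most -0.45 and -0.18. In AireKO 4 of 19 were at least 2-fold lower, and in Sirt1cKO 0, against 8.46% and 1.68% of all measured genes. Below WT were 16 of 19 in AireKO and 15 in Sirt1cKO, against 63.7% and 58.4% of all measured genes. The highest of the list were Sucla2 in AireKO, at 0.47, and Sdhc in Sirt1cKO, at 0.27. The citrate synthase gene Cs stood at 9.46 in AireKO, 10.15 in Sirt1cKO and 11.10 in WT. The pyruvate dehydrogenase subunit gene Pdha1, which is X-linked, differed by -1.25 in AireKO and -0.91 in Sirt1cKO, and the isocitrate dehydrogenase gene Idh3b by -1.09 and -0.99. Pdhb, a further subunit gene, had 6.52 in AireKO, which is within background, 7.27 in Sirt1cKO and 7.92 in WT. This makes it lower in AireKO than in WT by at least 2.05-fold. Gluconeogenesis, with 4 of 7 genes measured, had medians of -0.73 and -0.23. Its G6pc3 differed by -0.86 in AireKO and Pck2 by -0.56, and in Sirt1cKO G6pc3 differed by -0.63 and Pck1 by 0.10.

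Markers of cell types were read too, and their lists did not share 1 order of the libraries. The summed intensity of 7 neutrophil markers was 901 in AireKO, 2798 in Sirt1cKO and 5555 in WT. The CD45- gate should remove neutrophils, and the sorted cells themselves display antigens of other tissues. Which cells these RNAs came from was not tested. Of the 7, 3 stood above background in AireKO, 7 in Sirt1cKO and 7 in WT. The 11 medullary markers, which are those of the sorted cells, summed to 40911 in AireKO, 46016 in Sirt1cKO and 61255 in WT. Their median differences from WT were -0.65 and -0.45, close to those of the members. In each comparison 10 of the 11 were below WT, against 63.7% and 58.4% of all measured genes. Cd80 was above WT, by 0.76 in AireKO and 0.36 in Sirt1cKO, and Fezf2 was nearly level, at -0.01 and -0.08. The 6 cortical epithelial markers summed to 1339, 1816 and 2623, with 4, 5 and 6 of them above background. Background itself lay at 6.89 in AireKO, 6.34 in Sirt1cKO and 6.02 in WT, so all such counts depend on it too. Cxcl12, at log2 intensities of 6.17, 6.16 and 6.12, was above background only in WT. Fibroblast markers summed to 4770 in AireKO, 2602 in Sirt1cKO and 1937 in WT over 6 genes, an order set by Dcn. Dcn, which encodes the matrix proteoglycan decorin, had 4033, 1873 and 1083, while Pdgfrb differed by -1.02 in AireKO and -0.27 in Sirt1cKO. The 4 measured fibroblast markers had medians of 0.10 in AireKO and -0.20 in Sirt1cKO, and Pdgfra and Lum were within background in all 3 libraries. Thymocyte markers summed to 2116, 2006 and 1673 over 9 genes, with Ptcra within background in all 3. Dendritic cell and macrophage markers summed to 1713, 1684 and 1724 over 7 genes, with 4, 7 and 7 above background. The lysosomal marker Cd68 made up much of that sum, at 903.1, 633.0 and 565.9, and the 6 measured markers had medians of -0.55 in AireKO and -0.18 in Sirt1cKO, with 4 of 6 below WT in AireKO. Endothelial markers summed to 449, 350 and 342 over 5, and the 2 matched erythroid markers to 338, 339 and 334. Only 1 of the 5 endothelial markers was measured, and 1, 2 and 3 stood above background, with Kdr and Emcn within it in all 3 libraries. The endothelial sums thus rest largely on background values. The part of these cells in the members' differences was not tested.

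Genes whose 3 values most resembled the members' were sought over the 3 libraries. Likeness was the Euclidean distance between a gene's log2 values, centred on their mean, and the mean centred values of the 9 members. The nearest were Thsd7b at a distance of 0.00676, Tlcd2 at 0.00715 and Gfm1, a mitochondrial elongation factor gene, at 0.0116. Thsd7b was within background in AireKO, at 6.82, so its distance and rank rest on a value that is not resolved there. With 3 libraries such likeness is common. Of 12411 genes compared, 281 were at least as near as Hk2, the nearest member, at 0.0963, and Ldha was the farthest member at 0.342.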

How the data were processed

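The deposited table held intensities, linear and 1 for each probe set, which the authors made with RMA, per the submitters' processing notes. Its version, any return from the log2 scale, and the genome build were not given in the sources used here. Values were all positive and log2 was taken here, with no further normalization. Of 34760 probe sets, 21640 had 1 gene symbol, 1321 had several and 11799 had none listed in the platform annotation. By Entrez identifier, 99.6% of those with 1 symbol were found in a GRCm38.p6 RefSeq gene table, which changed 0 symbols. The brightest probe set was kept for each of 19937 genes. A gene was measured if its highest library reached the median of all values. Background was the 95th percentile of 1027 olfactory receptor genes in each library, and a fold against a value within it is a lower bound. With 1 library for each genotype no test was run, and a change of at least 2-fold was counted beside its share among measured genes.

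Libraries were grouped by title. The members and lists were chosen with earlier results of these data known. Named genes were all members, list genes at 2-fold or else the extremes of a list, and the 3 genes most like the members. Pfkm, Slc16a7, Hif1a, Myc, Bnip3, Sucla2, Sdhc and the single markers were named after their values were seen. Alternatives were quantile normalization, loess with a span of 0.3, centring, removal of the offset over all genes or over a decile of brightness, other probe-set and filter rules, 1.5-fold and 3-fold thresholds, exchanged knockout labels and removal of X and Y genes. The Hk1 alternatives were added after the data were examined. Python 3.11.15, numpy 2.4.6, pandas 2.3.3, statsmodels 0.14.6 and matplotlib 3.10.9 were used, and the counting and scaling code was tested on simulated data. Promoter sequences are RefSeq's.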

Additional observations from a re-analysis of the deposited data

How the results depend on the processing

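The members' median stayed below 0 in all 13 alternatives run for AireKO minus WT, from -0.63 to -0.33. The same held in all 13 for Sirt1cKO minus WT, from -0.60 to -0.36. Not all of these could change the result. The filter alternatives kept all 9 members and so returned the same medians. Other probe-set rules and the Hk1 alternatives could alter Hk1 alone, and removal of X and Y genes took out only Pgk1. As all 9 members were below WT, only the 5 rescalings could have changed the sign of a median. Exchanged labels only swapped the medians of the knockouts, which is where the -0.60 for Sirt1cKO comes from. Without that exchange its lowest value was -0.46. Centring each library on its measured genes raised every gene by 0.27 in AireKO minus WT, where the members' median became -0.33, and by 0.10 in Sirt1cKO minus WT. The count of 1 member at least 2-fold lower in AireKO, Ldha, became 0 after quantile normalization, after loess, after centring, with the median difference of all genes set to 0 and with that of the decile of brightness subtracted. It was 5 at 1.5-fold and 0 at 3-fold, both before rescaling. The Sirt1cKO count of 0 became 2 at 1.5-fold, also before rescaling. With the knockout labels exchanged, the count was 0 in AireKO and 1 in Sirt1cKO, and the median of Sirt1cKO minus AireKO was -0.18. Of the members, Pfkp in AireKO minus WT alone changed sign among 5 rescalings of the comparisons with WT, to 0.01 with that of the decile of brightness subtracted. Medians of the housekeeping list in AireKO and of the glycogen list in Sirt1cKO also changed sign, to at most 0.03 and 0.01. No paired analysis was possible because each genotype had 1 library. Hk2 was the dimmest member, and genes near background are least resolved in AireKO, where background was highest.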

Other observations

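Glycogen and hexosamine branches, with 9 of 9 genes measured, were mixed. Their median was -0.52 in AireKO, where 3 of 9 genes were above WT, and -0.08 in Sirt1cKO, where 5 rescalings gave -0.04 to 0.01. Pgm2, a phosphoglucomutase gene, stood at 7.59 in AireKO, 8.86 in Sirt1cKO and 8.55 in WT, the lowest difference of the list in AireKO at -0.97. Gbe1, the glycogen branching enzyme gene, was the highest there, at 0.54. In Sirt1cKO the extremes were Gfpt1, the first enzyme gene of hexosamine synthesis, at -0.71, and the glycogen phosphorylase gene Pygl at 0.60.

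Of 10 measured housekeeping genes 7 were below WT in AireKO and 4 in Sirt1cKO. Their medians were -0.24 in AireKO, where 5 rescalings gave -0.11 to 0.03, and 0.03 in Sirt1cKO. Gusb, which encodes a lysosomal glucuronidase, was the 1 of 10 at least 2-fold lower in AireKO, against 8.46% of all measured genes, at 8.23 in AireKO, 8.90 in Sirt1cKO and 9.26 in WT. Tbp, a general transcription factor gene, was the highest of the list in both comparisons, at 0.65 in AireKO and 0.59 in Sirt1cKO.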
